A study of Saccharomyces cerevisiae with 12 samples.

Results

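The expression ratio examined here is that of a budding yeast strain in which HCM1 is driven by a tet promoter, named tetHCM1HA, over the strain that carries the same tagged gene under its own promoter, named HCM1HA. It was measured on 2 arrays with the dyes swapped, titled Exp 1 and Exp 2, out of 12 arrays in the series. Each array was centred on its median, and the 3955 ORFs with a value on both arrays, of 6174 ORFs in the table, were kept and their values averaged. A further 703 ORFs had a value on Exp 1 only, 19 on Exp 2 only and 1497 on neither.

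Both strains descend from CML128, which is MATa and carries ura3-52 and mutant alleles of HIS4, LEU2 and TRP1. In tetHCM1HA (MJRC07) the kanMX4-marked tetO7 promoter stands before HCM1-3HA, and in HCM1HA (GRB2405) the natMX4-marked HCM1-3HA keeps its own promoter, so both carry the tag and the natMX4 marker and only the first carries the kanMX4 cassette. Neither culture received doxycycline, the drug that shuts this promoter. The promoter acts constantly without the drug, so the strain is a model of HCM1 expressed without its own cell cycle control, and each genotype is represented by 1 strain. The other comparisons of the series, used below only beside these values, were an hcm1 deletion (MJRC05) over the CML128 wild type, tetHCM1HA untreated over tetHCM1HA given doxycycline for 10 h, HCM1HA over wild type, and HCM1HA after 4 h or 10 h of doxycycline over HCM1HA without it. All of these but the deletion share a strain with the ratio examined here, so their values are only set beside it. Cells grew in YPD at 30 °C to an A600 of 0.5.

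Hcm1 is a forkhead transcription factor that is normally made and active as cells enter S phase. It is known as an activator of genes for the spindle, the spindle pole body, kinetochores and chromosome segregation, and of the later regulators FKH1, FKH2, NDD1 and WHI5, through which the cell cycle transcription programme runs on. It has also been linked to respiration and resistance to oxidative stress in yeast.

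By the design text each RNA was also hybridised with its dyes exchanged, but the labels do not say whether Exp 1 and Exp 2 hold the same extracts. The 2 arrays were counted as 1 RNA pair, and every SD below is the spread of those 2 arrays, which may be technical. Between the arrays Pearson r was 0.64 and Spearman rho 0.52 across ORFs, over genes that are not independent replicates. The sign differed between the arrays for 1319 ORFs (33.4%), and the median SD was 0.19 on the log2 scale. A population was measured, so a change in the share of cells at one cell cycle stage and a change of RNA per cell cannot be told apart. The ratios carry no absolute level, so the labelled mating type could not be checked by level: among 7 a-cell genes 3 had both values, with log2 ratios between -0.48 and 0.03, and the MATa defining genes MFA1, AGA2 and ASG7 had none.

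HCM1 (YCR065W, chromosome III) was the gene with the highest ratio. Its log2 ratio was 5.31 on Exp 1 and 5.02 on Exp 2, a mean of 5.17 ± 0.20 (SD, n = 2 arrays), or 35.9-fold. With limma across all ORFs, taking the residual from the 3 control comparisons, its Benjamini-Hochberg adjusted p was 0.056. That test assumes that the controls hold no true change, so any effect of doxycycline counts as spread. In HCM1HA after 10 h of doxycycline over none the median was -1.18 over 23 general stress genes. It was 1.05 over 72 large subunit ribosomal protein genes. In the hcm1 deletion over wild type HCM1 stood at -3.55 and -3.18. The titles of those arrays name the wild type first and the design text names the deletion first; the ratio is read in the order of the design text, and the deleted gene is low in that reading. Beside these values, HCM1 stood at 5.79 and 5.51 in tetHCM1HA without over with doxycycline, which shares the tetHCM1HA strain, and at 1.37 and 0.68 in HCM1HA after 10 h of doxycycline over none. In HCM1HA over wild type it stood at 0.27 in one deposited column and -0.27 in the other: the 2 columns mirror each other over all ORFs, so the direction of that ratio is not settled, and signed values of it are given below for both columns.

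The genes next to HCM1 did not share its ratio. BUD31, a splicing factor gene, stood at -0.02 and -0.05, and RAD18, a ubiquitin ligase of DNA damage tolerance, at -0.10 and 0.43. Of 10 neighbours named, 7 had both values, and their median log2 ratio was 0.05.

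Of the 3955 ORFs, 46 were at least 2-fold higher on each of the 2 arrays (1.16%) and 22 at least 2-fold lower (0.556%). With limma 0 of 2435 ORFs passed an adjusted p of 0.05 (0.0%), 113 had an unadjusted p under 0.05 (4.64%), and 1520 ORFs had too few control values to be tested. With each array taken as a replicate and the dye orientation as a block, 121 of 3202 ORFs passed, 110 higher and 11 lower, and HCM1 had an adjusted p of 0.000375 by that limma fit. That fit takes the 2 arrays as independent samples, which they are not if they hold the same extracts. Many of the 110 higher ORFs of that fit had 390 to 480 bases and lay on chromosomes IV, XV and XVI. Others lay on those chromosomes and had no RefSeq entry. ORFs of that length on those chromosomes stood high as a group, as described below, so the 110 are not a count of separately raised genes. In what follows no gene passed the main test, and the values describe these 2 arrays. At the limit on the higher side, YOR325W, NUT2, INO4 and YOR013W lay just inside with smaller values of 1.00 to 1.01, and BNA1, YGR079W, INP2 and YER137C just outside with smaller values of 1.00. On the lower side MIS1, GYP7, PDR5 and YER160C lay just inside and HAC1, SSN3, BTN2 and YHL034W-A just outside, the last at -0.96 and -1.03.

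**Figure D1:**
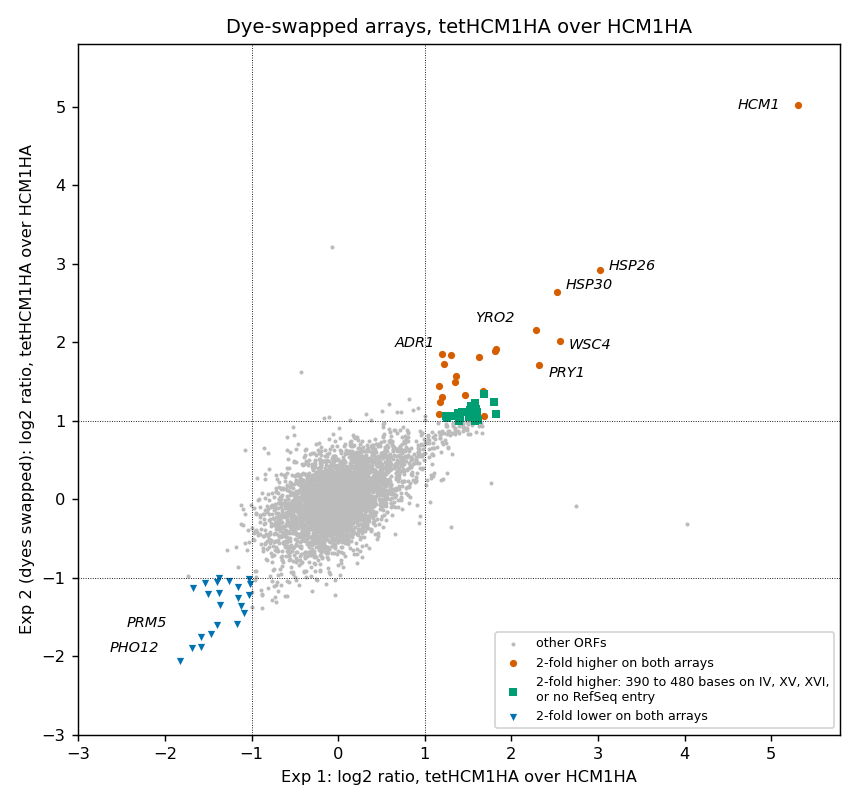
Each point is 1 of the 3955 ORFs, with its median-centred log2 ratio of tetHCM1HA over HCM1HA on Exp 1 (x axis) and on the dye-swapped Exp 2 (y axis); dotted lines mark 2-fold. HCM1 stands alone at 5.31 and 5.02, and the 2-fold higher ORFs split into a spread set (circles) and a dense cluster (squares) of short ORFs on chromosomes IV, XV and XVI and of ORFs with no RefSeq entry.

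The 46 higher ORFs fell into separable sets by the length and chromosome of the gene. ORFs with a gene length, from start to stop codon with introns, of 390 to 480 bases on chromosomes IV, XV and XVI had a median log2 ratio of 1.10 over 58 ORFs, with quartiles of 0.84 and 1.20, while the 94 ORFs of the same length on the other chromosomes had a median of 0.05. The median was 1.09 for 25 such ORFs on chromosome IV, 1.08 for 17 on XV and 1.11 for 16 on XVI. On the same chromosomes, shorter ORFs had a median of 0.09 and those above the window but under 600 bases one of 0.17. Of these 58 ORFs 53 lay above 0 on both arrays, and only 3 below 0 on both. This group was noticed after the values were seen, it carries no test, and its cause was not tested.

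Among the 46 higher ORFs, 13 belonged to that length group, among them NUT2 (a Mediator subunit), INO4 (a regulator of phospholipid genes), UBC11 (a ubiquitin conjugating enzyme), CSM4 (a meiotic chromosome protein) and BTT1 (a subunit of the nascent polypeptide complex). CSM4 stood at 1.58 and 1.23 and INO4 at 1.40 and 1.00. The 13 ranged up to 1.83 on Exp 1 and 1.23 on Exp 2, with their lower ends set by the 2-fold limit, and the means of all 58 ran from -0.59 to 1.46. A further 10 of the 46 had no entry in the gene table used here and lie, by their systematic names, on the same 3 chromosomes. YCRX12W, on chromosome III by its name, also had no entry and stood at 1.58 and 1.20. In the other comparisons the 58 ORFs had medians of 0.56 and 0.01 on the 2 arrays of the deletion over wild type, 0.51 and 0.18 in HCM1HA after 4 h of doxycycline over none, and 0.73 and 0.02 after 10 h. In tetHCM1HA without over with doxycycline they had medians of 1.69 and 1.29.

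A second, weaker group of the same kind held longer genes. On chromosomes X to XIII, 80 ORFs of 2100 to 2349 bases had a median log2 ratio of 0.58, against -0.20 for 96 ORFs of about that length on other chromosomes. On chromosomes X to XIII the median was 0.09 for 180 ORFs of 1605 to 2097 bases and -0.07 for 68 ORFs of 2358 to 2835 bases. Of the 80, 70 lay above 0 on both arrays and 0 reached 2-fold on both. Cell cycle and stress genes of this group are named with that fact below, beside the value left when the median of the 31 ORFs nearest in length within the chromosome group is taken away on each array.

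**Figure D2:**
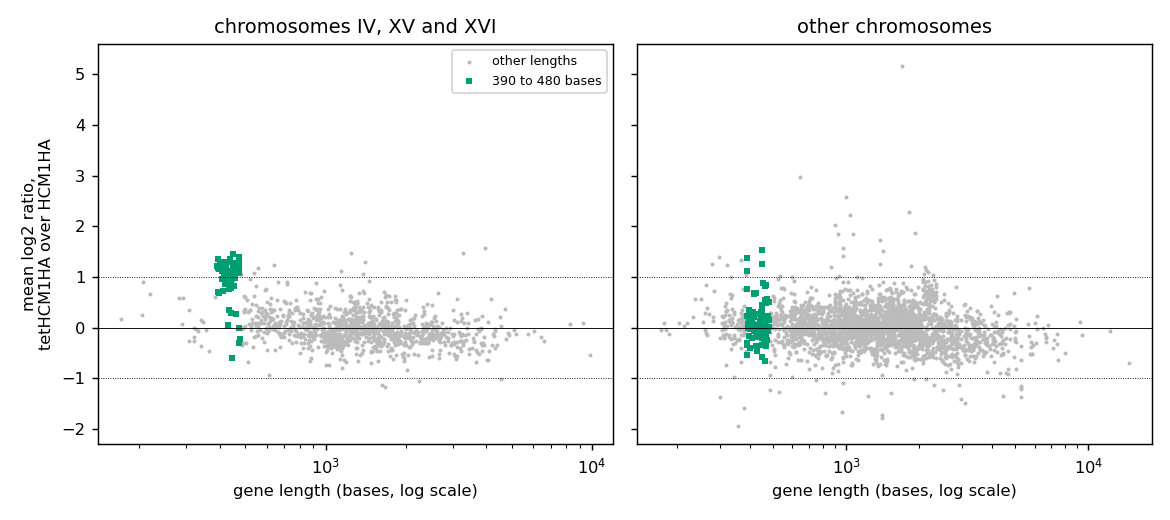
Mean log2 ratio of tetHCM1HA over HCM1HA (y axis) against gene length in bases (x axis, log scale) for ORFs of chromosomes IV, XV and XVI (left) and of all other chromosomes (right). Squares mark 390 to 480 bases, where the left panel has a median of 1.10 and the right panel one of 0.05; the higher band near 2100 to 2349 bases on the right holds ORFs of chromosomes X to XIII.

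After HCM1, 21 of the 2-fold higher ORFs were genes outside the 390 to 480 base group with an entry in the gene table. With the length correction, 23 ORFs were 2-fold higher, 22 of which were among the 46. The strongest belonged to stress proteins of the cytosol and membrane. HSP26, a small heat shock protein that holds unfolded proteins, stood at 3.02 and 2.91, a mean of 2.97 ± 0.07 (SD, n = 2 arrays), or 7.82-fold. SSA4, the stress-inducible Hsp70, stood at 1.82 and 1.91. The 2 arrays differed little for both genes, yet HSP26 had an unadjusted p of 0.068 by limma, because it varied in the controls: it stood at -3.14 in HCM1HA after 10 h of doxycycline over none.

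HSP30, a plasma membrane protein that restrains the proton pump Pma1, stood at 2.53 and 2.63, and its relative YRO2 at 2.28 and 2.15. The third family member, MRH1, stood at 0.74 and 0.47, so all 3 measured members lay above 0 on both arrays. YRO2 had the lowest adjusted p after HCM1, 0.255 by limma, and stood at -0.02 and 0.31 in HCM1HA after 4 h and 10 h of doxycycline over none, while HSP30 stood at 1.34 and -0.50 in those controls.

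Genes of the cell surface came next. WSC4, of the family of cell wall stress sensors, stood at 2.56 and 2.01, a mean of 2.29 ± 0.39 (SD, n = 2 arrays). YGP1, a secreted glycoprotein made when nutrients run low, stood at 1.81 and 1.88, and SPI1, a wall protein made in stationary phase and under weak acids, at 1.68 and 1.37. PRY1, a secreted sterol-binding protein, stood at 2.32 and 1.71, and the other members PRY2 and PRY3 had means of 0.77 and 0.32. In HCM1HA after 10 h of doxycycline over none, YGP1 stood at -1.15 and SPI1 at -2.13, and PRY1 at 1.08 on Exp 1 and -0.16 on Exp 2.

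Metabolic genes made up much of the rest. BNA4, kynurenine 3-monooxygenase of the NAD synthesis route from tryptophan, stood at 1.63 and 1.82, with -0.29 and -0.18 in the deletion. GDH2, the NAD-dependent glutamate dehydrogenase, stood at 1.23 and 1.73, and CIT2, the peroxisomal citrate synthase, at 1.20 and 1.30. ADR1, an activator of glucose-repressed genes, stood at 1.30 and 1.84, and QCR10, a subunit of respiratory complex III, at 1.47 and 1.33. CIT2 was also above 0 on both arrays of the deletion, at 0.57 and 0.64, the same sign as here.

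The higher set held 2 cell cycle genes. CLB1, a B-type cyclin of mitosis, stood at 1.20 and 1.85, a mean of 1.52 ± 0.46 (SD, n = 2 arrays), and CIP1, an inhibitor of the cyclin-dependent kinase, at 1.16 and 1.09. CLB1 stood at -0.17 and 0.22 in the deletion, on opposite sides of 0. CIP1 stood at 0.12 and 0.01 in tetHCM1HA without over with doxycycline, which shares the tetHCM1HA strain. The other ORFs were CTK2 (a subunit of the kinase that acts on the tail of RNA polymerase II), TPO2 (a polyamine exporter), AAD10, TDA6, YDR222W and YLR297W, with means of 1.21 to 1.47.

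**Figure D3:**
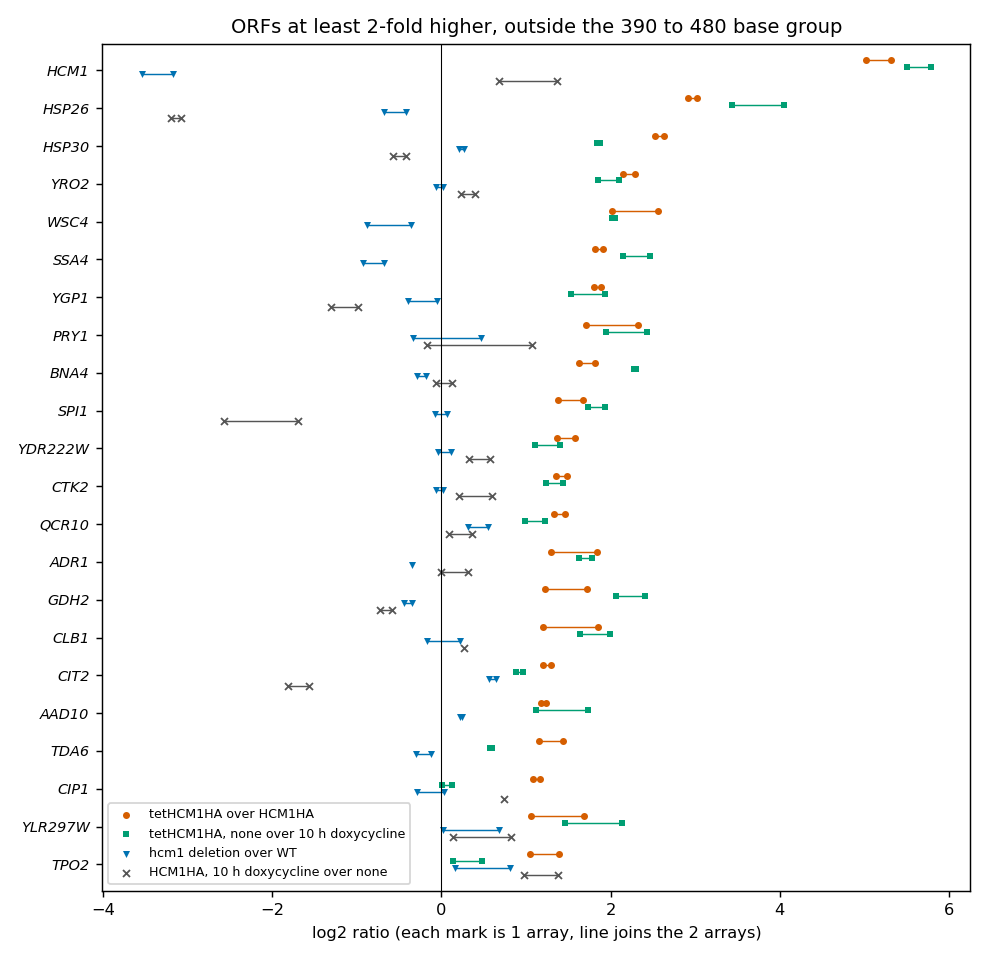
Log2 ratios (x axis) of HCM1 and the 21 other higher ORFs outside the 390 to 480 base group, 1 per line, in 4 comparisons; each mark is 1 array and a line joins the 2 arrays of a comparison. HSP26, SPI1, CIT2 and YGP1 lie far below 0 in HCM1HA after 10 h of doxycycline over none (crosses), while BNA4 lies near 0 there and the 2 arrays of PRY1 lie apart, at 1.08 and -0.16.

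The deletion over wild type shares no strain with this comparison and gives a view that is independent in its RNA. Of the 46 higher ORFs 45 had deletion values: 8 lay below 0 on both deletion arrays (33.4% of all ORFs) and 16 above 0 on both (31.3% of all ORFs). Of the 20 genes outside the short group with deletion values, HCM1 left out, 7 lay below 0 on both arrays and 6 above, with a median of -0.01. The lowest mean was that of SSA4, at -0.93 and -0.68, followed by WSC4 at -0.36 and -0.88 and HSP26 at -0.68 and -0.42. These 20 genes were spread around 0 in the deletion, while all 45 higher ORFs had a deletion median of 0.24. Across 3934 ORFs the mean ratios of the 2 comparisons correlated with a Pearson r of 0.35 and a Spearman rho of 0.44, a description over genes that share array probes and lengths.

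Most of the 22 lower ORFs stood on the same side in the deletion. Of the 22, 19 lay below 0 on both deletion arrays (33.4% of all ORFs) and 1 above 0 on both, with a deletion median of -0.53, and 5 were at least 2-fold lower there on both arrays (1.75% of all ORFs). Those 5 were RPN1, MDS3, MIS1, YLR162W and YLR012C. RPN1, a subunit of the proteasome base, stood at -1.68 and -1.13, with -2.35 and -2.70 in the deletion. MDS3, a negative regulator of sporulation, stood at -1.37 and -1.35, with -1.41 and -1.64 in the deletion.

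The controls share the HCM1HA strain with this comparison. In HCM1HA after 10 h of doxycycline over none, 13 of the 22 had values on both arrays, with a median of -1.01. YLR162W stood at -1.82 and -2.06 in tetHCM1HA over HCM1HA, and at -2.14 and 2.13 in the mirrored columns of HCM1HA over wild type. YLR012C stood at -1.17 and -1.59, with -1.69 and 1.70 in those columns, and RPN1 had a mean of -1.93 in HCM1HA after 4 h of doxycycline over none. SPT16, of the FACT complex that opens nucleosomes for polymerases, stood at -1.39 and -1.60, with -0.84 and -1.90 in the deletion and -3.17 and -4.22 in tetHCM1HA without over with doxycycline, and had no value on both arrays of a control. Gene length moved with these values too: 7 of the 22 had 3000 bases or more. Of the 3807 ORFs with a gene length, 90 on chromosomes IV, XV and XVI and 219 on the others were that long. Of these, 1 and 6 were 2-fold lower. The 7 include YJR029W, YJR027W, YER138C and YER160C, which share the same gene length, so the count leans on these ORFs. With the length correction 16 ORFs were 2-fold lower, 13 of which were among the 22. The part of gene length and of the changes in the controls in these results was not tested.

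Among the other lower ORFs were genes of phosphate, sulphur and drug handling. PHO12 and PHO11, secreted acid phosphatases, stood at -1.69 and -1.90, and at -1.58 and -1.89. They are near-identical copies, so their probes may not tell them apart. MET3 (ATP sulphurylase) stood at -1.53 and -1.07 and MET6 (methionine synthase) at -1.15 and -1.11. PRM5, a membrane protein gene that responds to pheromone and to wall stress, stood at -1.59 and -1.75, and PDR5, the main multidrug exporter, at -1.03 and -1.01. In the deletion PDR5 stood at 0.71 and 0.58, the only one of the 22 above 0 on both arrays. PHO12 stood at 0.34 and -0.01 there, and PHO11 at 0.35 and -0.01. The ORFs YJR029W, YJR027W, YER138C and YER160C share a gene length of 5269 bases and had means of -1.36, -1.21, -1.15 and -1.19. Whether their probes tell them apart was not tested. In HCM1HA after 10 h of doxycycline over none they had means of -1.55, -2.13, -1.78 and -1.65. The SDs there were wide, at 1.18, 1.38, 1.36 and 1.53 (n = 2 arrays). The other lower ORFs were YLR122C, YHL049C, YFL068W, YFL067W, LAF1 and GYP7, a GTPase activator of Ypt7.

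The known targets and partners of Hcm1 were followed through lists of genes, described by counts and medians beside the 32.4% of all ORFs above 0 and the 33.8% below 0 on both arrays. Of 12 measured forkhead and S phase regulators, HCM1 included, 4 lay above 0 on both arrays and 4 below. NDD1, the coactivator of mitotic genes and a known Hcm1 target, stood at 0.42 and 0.77. FKH1 stood at -0.20 and -0.41 and FKH2 at -0.04 and 0.53, and WHI5, the G1 repressor, had only an Exp 1 value of -0.15. MBP1, the DNA-binding part of the S phase factor MBF, stood at 0.38 and 0.52.

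Kinetochore and chromosomal passenger genes showed no shared direction: of 25, 9 lay above 0 on both arrays and 6 below, with a median of 0.03. NNF1, of the inner MIND complex, and NDC80, of the complex that binds microtubules, stood at 0.73 and 1.11, and at 0.67 and 0.56, and DAM1 of the outer ring at 0.53 and 0.75. MTW1, a partner of NNF1 in the same complex, stood at -0.76 and -1.04, the lowest of the list. In the deletion MTW1 stood at -0.75 and -1.08 and NDC80 at 0.28 and -0.09. Members of 1 complex thus lay on both sides of 0.

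Among 12 tubulin, motor and midzone genes the counts were 4 above and 3 below, with a median of 0.08. TUB2, beta tubulin, stood at -0.36 and -0.49, and was lower still in the deletion, at -1.05 and -1.12. Of 9 spindle pole body genes 3 lay above and 1 below, with a median of 0.11, and SPC98 of the gamma tubulin complex stood at 0.39 and 0.70 with -0.63 and -0.31 in the deletion. SPC98 was thus above 0 with HCM1 raised and below 0 without it, while TUB2 was below 0 in both.

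Cyclins and CDC28 had 6 of 12 above 0 and 3 below, with a median of 0.08. CLB1, described above, and its paralog CLB2 differed in sign, CLB2 standing at -0.55 and -0.36, and CDC28 stood at 0.39 and 0.58. Of 17 mitotic and cytokinesis regulators 6 lay above and 6 below, with a median of 0.00. ALK1, a mitotic kinase gene of the haspin family, stood at 0.71 and 0.57 and kept a mean of 0.85 after the length correction. CDC5, the polo kinase, stood at 0.70 and 0.56, but it lies in the 2100 to 2349 base group of chromosomes X to XIII and its mean after the length correction was 0.05. DNA replication and cohesion genes had 9 of 33 above and 12 below, with a median of -0.03, CDC45 at -0.66 and -0.37 among the lowest.

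Histone genes and chaperones had 8 of 17 above 0 and 6 below. HTZ1, HTA1 and HTB1, the 3 highest members, belong to the 390 to 480 base group; HTZ1 stood at 1.44 and 0.92, and HTA1 at 0.84 and 0.54. The list's median was 0.08, and -0.07 after the length correction.

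Among lists with 10 or more measured genes, those of oxidative phosphorylation had the highest medians. All 12 measured ATP synthase genes lay above 0 on both arrays, with a median log2 ratio of 0.67, of 0.76 on Exp 1 and 0.61 on Exp 2. Of 23 genes for respiratory complexes II, III and IV, the NADH dehydrogenases and cytochrome c, 20 lay above 0 on both arrays and 1 below, with a median of 0.56, of 0.60 on Exp 1 and 0.52 on Exp 2. After the length correction the medians were 0.57 and 0.43.

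ATP5, of the stalk of the ATP synthase, stood at 1.499 and 0.97, a mean of 1.23 ± 0.38 (SD, n = 2 arrays), and ATP16, the delta subunit, at 1.30 and 0.82. ATP19, a small membrane subunit, stood at 0.94 and 0.87. ATP16 has a gene length of 483 bases on chromosome IV, next to the short group, and its mean was 0.63 after the length correction. The catalytic subunit ATP2, of a longer gene, stood at 0.82 and 0.62.

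In the electron transfer complexes QCR10 led, and COX4 and COX13 of cytochrome oxidase stood at 0.75 and 0.93, and at 0.65 and 0.88. COR1, a core subunit of complex III, stood at 0.62 and 0.73, and CYC1, the main cytochrome c, at 0.59 and 0.72. SDH3, a membrane anchor of succinate dehydrogenase, was the only member below 0 on both arrays, at -0.11 and -0.36. Both lists also had medians above 0 in HCM1HA given doxycycline over none. HCM1 keeps its own promoter there but was itself above 0, at 1.37 and 0.68 after 10 h. After 4 h HCM1 had only an Exp 2 value of 0.50. The ATP synthase median was 0.28 after 4 h and 0.25 after 10 h, and that of the respiratory list 0.26 and 0.23. In the deletion the median was -0.23 for ATP synthase and -0.10 for the respiratory list. The same members were not uniformly opposite there: QCR10 stood at 0.55 and 0.32 in the deletion and COX4 at -0.36 and -0.10.

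**Figure D4:**
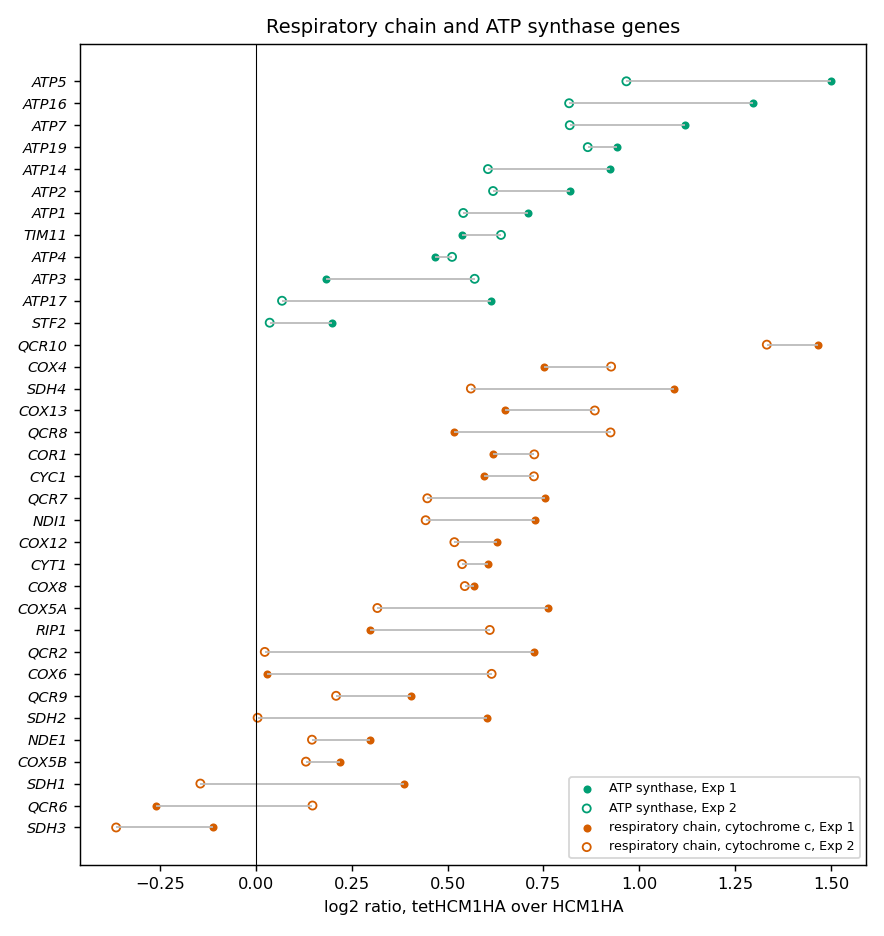
Log2 ratios of tetHCM1HA over HCM1HA (x axis) for the 12 ATP synthase genes and the 23 respiratory chain genes measured on both arrays, 1 gene per line; filled circles are Exp 1, open circles Exp 2. All ATP synthase genes and 20 of the 23 respiratory chain genes lie above 0 on both arrays.

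Other mitochondrial genes shared this only in part. Respiratory assembly factors had 6 of 19 above 0 and 2 below, with a median of 0.04, and mitochondrial import genes 8 of 28 above and 9 below, with a median of -0.01. TIM44, of the import motor, stood at -0.65 and -0.77. Mitochondrial ribosomal protein genes had 31 of 59 above and 6 below with a median of 0.15, 0.08 after the length correction. TCA cycle genes had 11 of 21 above and 5 below with a median of 0.10: KGD2 stood at 0.63 and 0.74, and KGD1, its partner in the same enzyme, at -0.38 and -0.52, with a mean of -2.60 in the deletion.

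The list of mitochondrial DNA, carrier and Hap regulator genes had 9 of 15 above 0 and 3 below, with medians of 0.38 on Exp 1 and 0.06 on Exp 2. MIR1, the phosphate carrier, stood at 1.16 and 0.86, ABF2, which packs mitochondrial DNA, at 0.74 and 0.79, and PET9, the main ADP and ATP carrier, at 0.90 and 0.54. HAP1 stood at -0.27 and -0.37, and HAP4, the activating subunit of the complex that drives respiratory genes, had no value. Among antioxidant enzymes 5 of 11 lay above and 1 below, with a median of 0.16. SOD2, the mitochondrial superoxide dismutase, stood at 0.60 and 0.18 and PRX1, the mitochondrial peroxiredoxin, at 0.38 and 0.42, while CTA1, catalase A, stood on both sides of 0 at 0.25 and -0.32. Thioredoxin, glutaredoxin and glutathione genes had 7 of 21 above and 8 below, with a median of -0.03.

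Glucose metabolism lay on the other side of 0, unevenly between the arrays. Of 28 glycolysis and fermentation genes 14 lay below 0 on both arrays and 2 above, with a median of -0.29, but the median was 0.00 on Exp 1 and -0.59 on Exp 2. HXK2, the main hexokinase and a signal of glucose repression, stood at -0.52 and -0.96. ENO2 stood at -0.04 and -1.22, a difference between the arrays wider than its distance from 0 on Exp 1. HXK1, the hexokinase of cells short of glucose, stood at 0.48 and 0.45.

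Most named enzymes of glycerol synthesis lay below 0 on both arrays: GPD1 and GPD2, the glycerol-3-phosphate dehydrogenases, stood at -0.57 and -0.71, and at -0.56 and -0.76, and GPP1, the phosphatase of the next step, at -0.88 and -1.20. Its paralog GPP2 stood at 0.32 and 0.12. Over 9 glycerol genes 4 lay above and 5 below. Of 12 hexose transporter and sensor genes 1 lay above and 6 below, with a median of -0.14. HXT1 and HXT2 stood at -0.60 and -0.48, and at -0.65 and -0.85, whereas HXT7, a high-affinity transporter, stood at 0.48 and 0.31. Its near-identical copy HXT6 stood at 0.10 and -0.18. Of 13 genes of gluconeogenesis and acetate use 7 lay above and 5 below, with a median of 0.27, ACH1 at 0.95 and 0.82 and MDH2 at 0.96 and 0.71 after ADR1.

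NAD synthesis genes had 10 of 13 above 0 and 2 below, with a median of 0.27, and 0.34 after the length correction. Besides BNA4, BNA1 stood at 1.00 and 1.06 and BNA5 at 0.80 and 0.86, 3 enzymes of the kynurenine route. TNA1, the nicotinic acid importer, stood at 0.71 and 0.68. The members below 0 were PNC1, nicotinamidase, at -0.73 and -0.53, and the NAD kinase gene UTR1 at -0.48 and -0.54. Sirtuin and silencing genes had 3 of 8 above and 2 below, and SIR2 stood at 0.15 and 0.68.

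Stress genes lay on both sides of 0. Of 26 general stress genes 15 lay above 0 and 3 below, with a median of 0.28, among them YGP1, SPI1, ALD3 at 0.79 and 0.77 and MSC1 at 0.75 and 0.62. The activators stood at 0.87 and 0.46 for MSN2 and at 0.30 and 0.47 for MSN4, but MSN2 lies in the longer group of chromosomes X to XIII and its mean was 0.00 after the length correction. Of 24 heat shock chaperones 6 lay above 0 and 14 below, with a median of -0.22. HSP26 and SSA4 stood far above the list, HSP42, the other small heat shock protein, stood at -0.49 and -0.75, and BTN2, a sorter of misfolded proteins, at -1.73 and -0.97. The cochaperone SIS1 stood at -0.45 and -0.48. Trehalose and glycogen genes had 4 of 11 above and 5 below.

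Among 10 genes that mark a post-diauxic or stationary culture, 5 had both values and 4 of them lay above 0 on both arrays: HSP26, YGP1, SPI1 and HXK1. SPG4 stood at 0.27 and -0.23, HXT5 had only an Exp 1 value of -0.43, and the defining genes HSP12, DDR2, SPG1 and ADH2 had none. Their part in the higher stress genes was not tested.

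Cell wall genes had 20 of 34 above 0 and 6 below, with a median of 0.32, of 0.54 on Exp 1 and 0.05 on Exp 2. CWP2, a major mannoprotein, stood at 1.66 and 0.84, GAS5, a glucan-extending enzyme, at 1.04 and 0.81, and GSC2, the stress form of glucan synthase, at 0.77 and 0.80. Of 12 sensors and cell integrity pathway genes 5 lay above 0 and 4 below, with a median of 0.08. WSC4 was the highest of them, and SLT2, the kinase of the pathway, stood at -0.89 and -0.56 and RLM1, the factor it activates, at -0.58 and -0.52.

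Phosphate genes had 12 of 15 below 0 on both arrays and 1 above, with a median of -0.37, of -0.35 on each array. PHO5, the main secreted acid phosphatase, stood at -0.96 and -0.91, and VTC1 and VTC4, which make polyphosphate, at -0.40 and -0.69, and at -0.60 and -0.42. PHM8 was the exception, at 0.58 and 1.22. In the deletion the list's median was 0.18 and PHO5 stood at 0.68 and 0.32. PHO84, the high-affinity phosphate transporter, had no value.

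**Figure D5:**
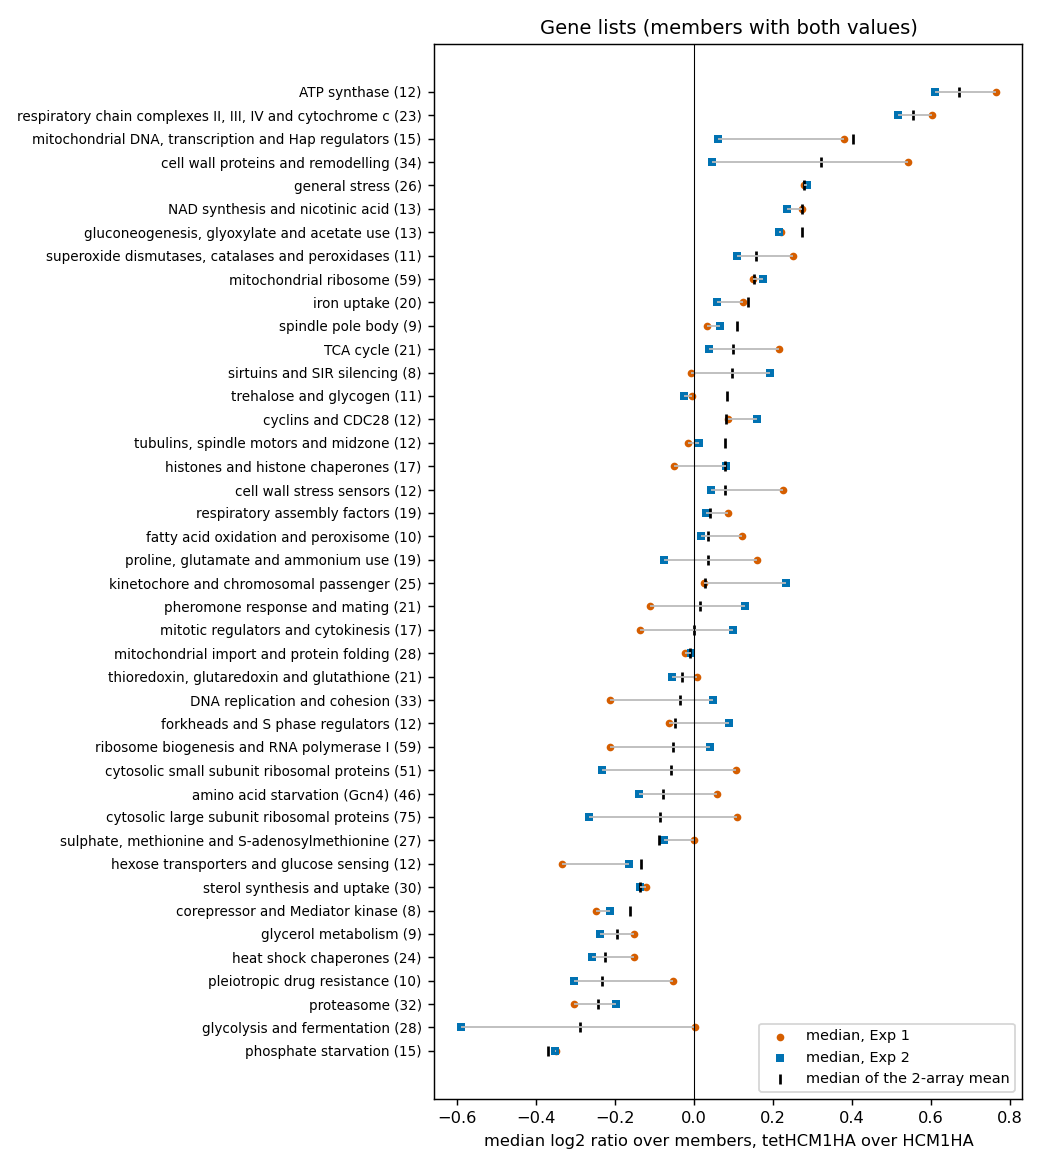
Median log2 ratio of tetHCM1HA over HCM1HA (x axis) over the members of 42 gene lists, with the number of members measured on both arrays in brackets; circles are Exp 1, squares Exp 2 and bars the median of the 2-array mean. ATP synthase (0.67) and the respiratory chain (0.56) lie highest and phosphate genes (-0.37) lowest, and glycolysis spans 0.00 to -0.59 between the arrays.

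Proteasome genes had 19 of 32 below 0 and 2 above, with a median of -0.24, PRE5 at -0.60 and -1.04 and RPN11 at -1.04 and -0.39 after RPN1. RPN4, their activator, had only an Exp 1 value of 1.27. Sterol genes had 15 of 30 below and 5 above with a median of -0.14, ERG28 at -0.58 and -0.59, while the deletion median of the list was 0.35. Cytosolic ribosomal protein genes differed between the 2 arrays. The small subunit genes had medians of 0.11 on Exp 1 and -0.23 on Exp 2, and the large subunit genes 0.11 and -0.27. Ribosome biogenesis genes had 17 of 59 above and 21 below.

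Sulphur amino acid genes had 11 of 27 below 0 and 5 above, with a median of -0.09, and amino acid synthesis genes under Gcn4 14 of 46 below and 11 above. Nitrogen genes had 7 of 19 above and 9 below; UGA1 and UGA2, of the GABA route, stood at 0.68 and 1.12, and at 0.68 and 0.84 beside GDH2. Iron uptake genes split, with 11 of 20 above and 9 below: FRE2, a reductase in the longer group of chromosomes X to XIII, stood at 1.33 and 0.93 with a mean of 0.58 after the length correction, and AFT1, the iron regulator, at -0.97 and -0.43. Of 8 corepressor and Mediator kinase genes 5 lay below 0 and 1 above. SSN3, the Mediator kinase, stood at -0.99 and -1.37 and CYC8, the corepressor, at -0.65 and -0.77, with -0.91 and -1.84 in the deletion.

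Drug resistance genes had 6 of 10 below 0 and 3 above, with TPO2 and PDR5 at opposite ends, and peroxisomal and fatty acid genes 6 of 10 above and 2 below. Pheromone and mating genes had 6 of 21 above and 6 below; PRM3 stood at 1.48 and 0.99 and belongs to the 390 to 480 base group. Meiotic genes had 3 of 6 above and 3 below. The auxotrophic markers stood at -0.26 and -0.42 for URA3, -0.19 and -0.16 for HIS4 and 0.43 and 0.03 for LEU2, all well inside 2-fold. Since 0 of 2435 ORFs passed the adjusted limma test, no member of the 48 lists could pass it. Members with too few control values were not tested.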

How the data were processed

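The deposited values are log2 ratios from 2-colour arrays, and per the labels they are Cy5 over Cy3 on Exp 1 and Cy3 over Cy5 on Exp 2, which puts tetHCM1HA over HCM1HA on both arrays if it was labelled with Cy5 on Exp 1; HCM1 is high on both. The deletion arrays are read as deletion over wild type, as the design text names them. Taken as powers of 2, 100% of the values on both arrays were whole steps of 0.001, which fits log2. Total RNA (8 µg) was labelled indirectly, per the labels' protocols; how the authors normalized and scanned was not stated in the labels. Depth does not apply; the number of arrays limits the precision.

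Each array was centred on its median (deposited medians 0.0058 and -0.0087) and the 2 arrays averaged. ORFs were named through the RefSeq R64 table, which held 3807 of the 3955; gene lengths run from start to end, introns included. limma 3.58.1 (R 4.3.3, lmFit, eBayes) was run on 6 comparison values with the residual from the 3 controls, needing at least 2 control values. On simulated data it recovered 4 of 50 ORFs given a log2 change of 1 and 23 of 50 given 2, with 3 false calls. An ORF that did not pass is thus not shown to be unchanged. HCM1HA over wild type enters by its first column, because its 2 columns mirror each other (r = -0.999), so its direction is not settled; the residual is taken around 0, where a turned sign gives the same test.

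The Exp number pairs the arrays: deviations of Exp 1 from Exp 2 correlated across ORFs at 0.56 to 0.68 over 10 pairs of comparisons, and the labels tie the number to the dye orientation. Named genes are HCM1, its neighbours, the markers, the 2-fold ORFs, those at the limit, and up to 6 members of each list that are furthest from 0 on both arrays, with defining genes; others, such as ENO2, HXT6, GPP2, HAP1, SDH3, KGD1, PRY2 and PRY3, were named after their values were seen. The members, the 48 lists (1271 genes) and the tests were chosen with earlier results of these data known. Alternatives covered centring, scaling, thresholds, controls, arrays and length. Promoter motifs were planned and not run, since no sequence table was used here.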

Additional observations from a re-analysis of the deposited data

How the results depend on the processing

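HCM1 kept its direction in all 16 limma alternatives. Among the limma fits that kept both arrays, its adjusted p of 0.056 crossed 0.05 with robust eBayes (0.0486). It also did so without the 10 h doxycycline control (2.503e-08) and with at least 1 control value (0.0465). With each array as a replicate it was 8.331e-05, and 0.000375 with the replicate block that pairs the dye orientations. The log2 ratio was 5.17 in all of these fits. Leaving out an array left 1 array per comparison and gave a log2 ratio of 5.02 or 5.31. Over all 16 its adjusted p ran from 2.503e-08 to 0.9999, the highest without the HCM1HA over wild type control. The count of ORFs passing, 0 in the main fit, was 1 with robust eBayes, 7 without the 10 h control, 1 with at least 1 control value, 21 with arrays as replicates, 121 with the replicate block and 0 to 1 without an array. In the order of the fits above, 113, 211, 137, 363 and 466 ORFs had an unadjusted p under 0.05.

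The 46 higher ORFs became 193 at 1.5-fold, 9 at 3-fold, 100 on the mean, 29 with values on all arrays, 24 with the length trend removed, 22 with the median of the same length and chromosome group subtracted, 23 with the 31 nearest in length subtracted, and 63 to 171 on a single array. The 22 lower became 82, 3 and 6 at 1.5-fold, 3-fold and with values on all arrays, and 44 to 51 on a single array. Of the 68 named 2-fold ORFs, 40, 37 and 35 stayed under the length corrections in that order; these settings leave out ORFs with no length. The length settings other than the trend were chosen after seeing the data. The glycolysis median was 0.00205 on Exp 1 alone and -0.59 on Exp 2 alone. Of 48 list medians 28 kept their sign in all 9 alternatives, and 10 of the 11 past 0.25 in size. If both arrays hold the same extracts, which the labels do not say, no spread between cultures was measured.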

Other observations

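ORFs with a value on only 1 array stood outside every count above. On that array 32 of them reached 2-fold upward and 7 downward, of 703 ORFs measured on Exp 1 only and 19 on Exp 2 only. Over all 4658 ORFs with an Exp 1 value, 171 reached 2-fold upward on it and 44 downward. The highest single-array ORFs were AMD2 at 3.28, OAR1 at 3.19 and YDR094W at 3.17, all on Exp 1. The genes named next were chosen after their values were seen. Regulators among them were SWI4, the DNA-binding part of the G1 factor SBF, at 1.39, CRZ1, the calcineurin-dependent factor, at 1.11 and GAL4 at 1.07. BNA2, the enzyme that opens the kynurenine route to NAD, stood at 1.41, and PUT1, proline oxidase, at 1.69. AFR1, a gene of the pheromone response, was lowest at -1.39. None of these has a dye-swapped value.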
